A study of Homo sapiens with 6 samples.

Results

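The interleukin 1 family and its receptors were examined in 2 human bladder cancer cell lines. The 10 members were taken by their symbols from the 50868 genes with values: the ligands IL1A, IL1B, IL18, IL33 and IL36G, the receptor antagonist IL1RN, the receptor chains IL1R1 and IL1RAP, the decoy receptor IL1R2, and the processing enzyme CASP1. The lines, UM-UC-3 and 5637, were grown in different media. Each received lentivirus carrying either the negative control hairpin (sh-NC) or a short hairpin RNA against the long noncoding RNA LNMAT1, of which there were 2 (sh-LNMAT1#1 and sh-LNMAT1#2), and stably expressing cells were obtained under puromycin. All groups, controls included, therefore carried a lentiviral hairpin and had been selected. There was 1 RNA library for each construct in each line, 6 in all, so no difference between a pair of libraries could be checked against replicates. The spread used below is that between hairpins. In the fit pooled over the lines it also holds the difference of the knockdown effect between the lines. Values of a line are given in the order control, #1, #2.

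Interleukin 1 alpha and interleukin 1 beta bind the same receptor, IL1R1, which recruits the accessory chain IL1RAP and signals through MYD88 and the IRAK kinases to NF-kappaB. The antagonist IL1RN occupies IL1R1 without signalling, and IL1R2 binds ligand without a signalling domain. Interleukin 1 beta and interleukin 18 are made as precursors that caspase 1 cleaves, whereas interleukin 1 alpha is active as made and can be released from damaged epithelial cells, urothelium among them.

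The values are FPKM (fragments divided by the length of the gene and by the sequencing depth), as the authors deposited them. The depths read from the values lay between 19375000 and 24707000 fragments. A level of 3 fragments was taken as the floor, and intervals and floors cover counting error only. Across the 12717 genes whose mean reached 1 FPKM, the library labelled 5637 sh-NC had a Pearson correlation of log2(FPKM + 0.5) of 0.922 to 0.985 with the UM-UC-3 libraries, the highest with UM-UC-3 sh-LNMAT1#1, and of only 0.617 and 0.622 with the 5637 sh-LNMAT1 libraries. The epithelial markers EPCAM, CDH1, KRT8, KRT18 and KRT19 summed to 20.5 to 30.0 FPKM in UM-UC-3 and 26.1 FPKM in the library labelled 5637 sh-NC, against 453 and 567 FPKM in the 5637 sh-LNMAT1 libraries. Every comparison with that library is given as one with the library labelled 5637 sh-NC, and the comparison of the lines was made on the sh-LNMAT1 libraries alone. Leukocyte markers summed to 0.362 to 0.920 FPKM, 0 of 9 reached 1 FPKM in any library, and LYZ and CD3E were at 0 in all 6. LNMAT1, listed as LINC01296, was at 14.2, 6.20 and 6.70 FPKM in UM-UC-3 and at 11.7, 4.70 and 2.14 FPKM in 5637. LINC01296 has near copies in the genome, so these values are uncertain.

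IL1A and IL1B lie next to each other on chromosome 2 of GRCh38, both on the minus strand, IL1A (ENSG00000115008) from 112773915 to 112784590 and IL1B (ENSG00000125538) from 112829751 to 112836903. The 250 bases before a RefSeq start of each are shown because these were the members with the highest levels and the largest differences. The RefSeq starts lie within the gene spans given above, so part of each window does too. Of the 2 RefSeq starts of IL1A, the start nearest the upper end of its span was used. The windows are the RefSeq entries of GRCh38.p14, chr2:112784494-112784743 for IL1A and chr2:112836780-112837029 for IL1B, read on the minus strand, 5′ to 3′. Capitals mark matches, on either strand, to an AP-1 motif (TGANTCA), a C/EBP motif (TTNNGNAA), TATAAA or the kappaB consensus.
IL1A: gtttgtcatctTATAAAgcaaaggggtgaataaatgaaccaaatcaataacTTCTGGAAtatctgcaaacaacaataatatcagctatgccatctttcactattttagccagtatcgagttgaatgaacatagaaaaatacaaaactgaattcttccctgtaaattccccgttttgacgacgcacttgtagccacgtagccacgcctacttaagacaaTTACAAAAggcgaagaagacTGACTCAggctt
IL1B: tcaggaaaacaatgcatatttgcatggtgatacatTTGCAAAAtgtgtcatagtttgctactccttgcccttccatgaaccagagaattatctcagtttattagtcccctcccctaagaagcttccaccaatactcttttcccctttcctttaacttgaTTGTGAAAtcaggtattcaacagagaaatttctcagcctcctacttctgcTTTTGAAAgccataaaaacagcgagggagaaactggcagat

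The IL1A window held 1 AP-1 match, 2 C/EBP matches and 1 TATAAA, the last at -239 to -234 from the start. The IL1B window held 3 C/EBP matches. Neither window held the kappaB consensus, and the IL1B window held no TATAAA. This says only that these exact letters are not in the 250 bases. Of 34943 windows of the same length, 6.59% held the AP-1 motif, 33.2% the C/EBP motif, 10.8% TATAAA and 9.95% the kappaB consensus. No capital stretch overlapped another in these windows.

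IL1A, an alarmin-type ligand, was close to absent in UM-UC-3 and among the genes of highest deposited FPKM in 5637 carrying a hairpin against LNMAT1. In UM-UC-3 its levels were 0.0381, 0.444 and 0 FPKM, from 2, 21 and 0 fragments. In 5637 they were 0.231, 257 and 304 FPKM, from 11, 11371 and 12510 fragments. The 5637 sh-LNMAT1 libraries stood apart from the other 4, with no overlap, and the library labelled 5637 sh-NC lay within the UM-UC-3 range. How many of all genes separate in this way, here and for the members below, was not counted. In the comparison of the lines below, 18.5% of 12717 genes were called higher in the 5637 sh-LNMAT1 libraries. In the 5637 sh-LNMAT1 libraries IL1A ranked 67 and 55 from the highest of all genes by deposited FPKM. Such ranks depend on the gene lengths behind the FPKM.

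IL1B, the secreted ligand that needs cleavage, was likewise highest in the 5637 sh-LNMAT1 libraries. In UM-UC-3 its levels were 0.0699, 0.405 and 0.0585 FPKM, from 9, 47 and 7 fragments, and in 5637 they were 0.470, 94.8 and 118 FPKM, from 55, 10288 and 11953 fragments. The library labelled 5637 sh-NC was just above the highest UM-UC-3 library and far below both 5637 sh-LNMAT1 libraries, where IL1B ranked 222 and 182 by deposited FPKM.

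Which of IL1A and IL1B was the higher in 5637 depended on the length behind the FPKM. The length behind the deposited values was inferred to be the summed length of all distinct annotated exons. That sum is 2124 bases for IL1A with its 1 transcript and 5215 bases for IL1B with its 8 transcripts. On that scale IL1A was 2.71 times IL1B in 5637 sh-LNMAT1#1 and 2.57 times in 5637 sh-LNMAT1#2. Per kilobase of the longest coding transcript, IL1B was 303 and 378 and IL1A 257 and 304, ratios of IL1A to IL1B of 0.849 and 0.804. The order of the 2 ligands therefore cannot be read from the deposited values, whereas a comparison of 1 gene between libraries does not involve this length. Ranks across genes and levels set against a fixed FPKM depend on it as well.

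IL36G, the epithelial ligand of the IL-36 receptor, was above the floor of 3 fragments in 2 libraries only. Its levels were 0.0357, 0 and 0 FPKM in UM-UC-3 and 0.0394 FPKM in the library labelled 5637 sh-NC, each at most 2 fragments. It was 6.05 FPKM (285 fragments) in 5637 sh-LNMAT1#1 and 14.5 FPKM (635 fragments) in 5637 sh-LNMAT1#2. Against the same hairpin in UM-UC-3, where it was listed at 0, IL36G was at least 102-fold higher with #1 and at least 251-fold higher with #2, taking the floor of 3 fragments per library.

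IL18 was the only ligand at more than 5 FPKM in every library, and its order did not follow that of IL1A. In UM-UC-3 its levels were 8.63, 7.34 and 19.7 FPKM, and in 5637 they were 12.4, 8.22 and 7.74 FPKM. The lines overlapped, and UM-UC-3 sh-LNMAT1#2 was the highest of the 6 with 2331 fragments. IL33, the nuclear alarmin that signals through IL1RL1, had 0 to 3 fragments in each library, so it was not detectable at this depth.

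The antagonist and the decoy receptor were low throughout and highest in 5637 sh-LNMAT1#2. IL1RN had 0, 0 and 2 fragments in UM-UC-3 and 14, 52 and 250 fragments in 5637, there equal to 0.107, 0.429 and 2.21 FPKM. IL1R2 had 0, 2 and 3 fragments in UM-UC-3 and 1, 17 and 42 fragments in 5637, there equal to 0.00966, 0.177 and 0.470 FPKM. For both genes the 5637 sh-LNMAT1 libraries were above the other 4. In these 2 libraries IL1RN had 52 and 250 fragments beside at least 10288 of either agonist. In the library labelled 5637 sh-NC it had 14 beside 11 for IL1A and 55 for IL1B. These fragments are not corrected for gene length.

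The signalling chain IL1R1 was present at a low deposited FPKM in all libraries. Its levels were 0.185, 0.510 and 0.365 FPKM in UM-UC-3 and 0.350, 2.87 and 2.00 FPKM in 5637. The 5637 sh-LNMAT1 libraries were again the highest, by 783 and 508 fragments against 60 to 149 in the others. The accessory chain IL1RAP, shared by the receptors for interleukin 1, 33 and 36, did not separate the libraries in this way. Its levels were 0.669, 0.886 and 0.560 FPKM in UM-UC-3 and 0.675, 0.626 and 0.987 FPKM in 5637, with 297 to 456 fragments and overlapping lines. Per kilobase of the longest coding transcript IL1RAP was 2.39 to 4.21, so its place under 1 FPKM depended on the length.

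CASP1, which encodes the protease that activates interleukin 1 beta and interleukin 18, was at 0.139, 0.382 and 0.0586 FPKM in UM-UC-3, from 23, 57 and 9 fragments. In 5637 it was at 0.173, 2.49 and 1.89 FPKM, from 26, 347 and 245 fragments. The same 2 libraries were the highest. Of the 50-base words of CASP1, 4.37% also occur in the neighbouring gene CARD16, so a small part of its fragments could belong to either.

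**Figure D1:**
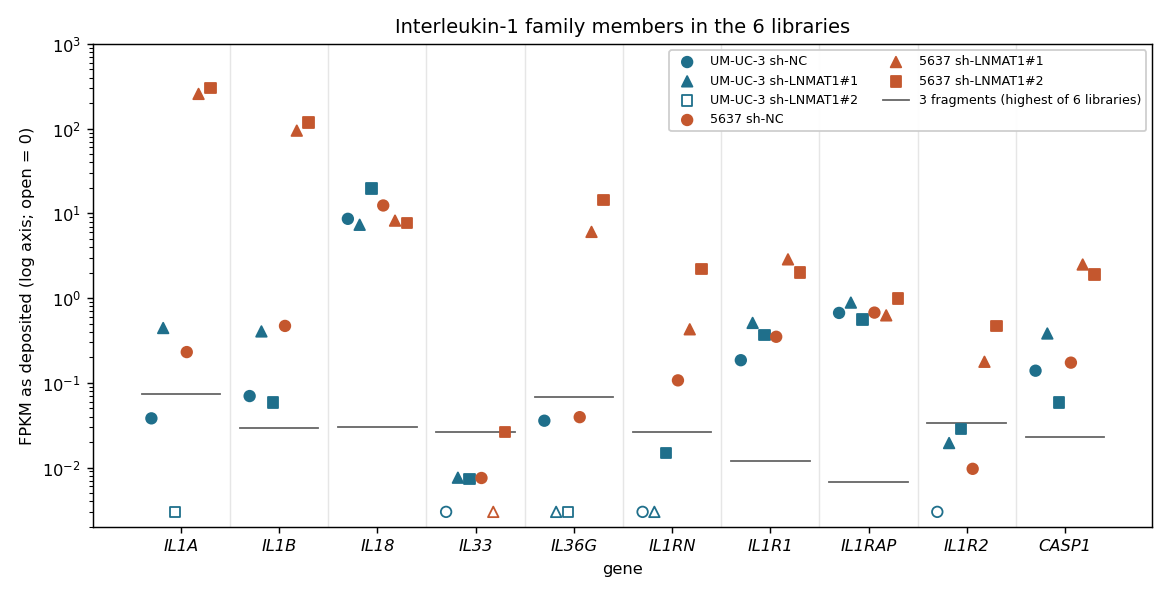
FPKM of the 10 members in the 6 libraries on a log axis, with colour for the line, shape for the construct, open symbols for 0 and a grey bar for the level of 3 fragments in the library where that level is highest. In IL1A, IL1B, IL36G, IL1RN, IL1R1, IL1R2 and CASP1 the 5637 sh-LNMAT1 libraries are above the other 4, among them the library labelled 5637 sh-NC, while IL18 and IL1RAP overlap and IL33 stays at the floor. The share of all genes that separate in this way was not counted.

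To ask how the family differs between the lines at matched constructs, the 2 5637 sh-LNMAT1 libraries were compared with the 2 UM-UC-3 sh-LNMAT1 libraries by limma on log2(FPKM + 0.5) over 12717 genes. Of the 10 members 5 reached a mean of 1 FPKM over the 6 libraries and were tested, and 4 of these were higher in 5637, where 18.5% of all genes were called higher, and 0 were lower, where 19.1% of all genes were called lower. IL1A, IL1B, IL36G and IL1R1 passed the filter only through the 5637 sh-LNMAT1 libraries, where they are high, so the count of 4 is a description and nothing is read from it. The differences, in log2 units with limma's Benjamini-Hochberg adjusted p, were 8.67 (SE 0.34, adjusted p = 0.000172) for IL1A and 7.23 (SE 0.30, adjusted p = 0.000172) for IL1B. For IL36G the difference was 4.31 (SE 0.41, limma adjusted p = 0.00138), and for IL1R1 it was 1.63 (SE 0.25, limma adjusted p = 0.00669). IL18 differed by -0.57 (SE 0.46, limma adjusted p = 0.368) and was not called. Without UM-UC-3 sh-LNMAT1#1 IL18 was called lower in 5637, at -1.25 (limma adjusted p = 0.0169), and without UM-UC-3 sh-LNMAT1#2 it was 0.11 higher. When the libraries were taken by label, 3 against 3, the difference of IL1A was 5.93 and 0 members were called (limma adjusted p = 0.335 for IL1A). Epithelial markers moved with this comparison, 5 of 5 higher in 5637 by limma, and their part in it was not tested. EPCAM, CDH1 and KRT19 likewise passed the filter only through the 5637 sh-LNMAT1 libraries. Fewer cells expressing a gene and less RNA per cell cannot be told apart in bulk RNA.

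Each sh-LNMAT1 library was next set against the sh-NC library of its line, the comparison for which the libraries were made. In UM-UC-3, IL18 alone passed a mean of 1 FPKM. It did not change 2-fold in 1 direction with both hairpins, whereas 1.08% of 12025 genes were higher and 0.358% lower by that much with both. IL18 differed by -0.22 (log2) with sh-LNMAT1#1 and by 1.15 with sh-LNMAT1#2, opposite directions. Among the members under that level, the counts differed between the hairpins too. IL1A, with 2 fragments in sh-NC, was 11.6 times as high with #1 (exact 95% counting interval 2.85 to 102) and at 0 with #2. IL1B was 5.79 times its sh-NC level with #1 (2.81 to 13.4) and 0.837 times with #2 (0.265 to 2.53). CASP1 was 2.75 times with #1 (1.67 to 4.67) and 0.421 times with #2 (0.172 to 0.945), and IL1RAP was 1.32 times (1.15 to 1.52) and 0.837 times (0.717 to 0.977). IL1R1 was above sh-NC with both, 2.75 times (2.03 to 3.78) with #1 and 1.97 times (1.43 to 2.75) with #2. These intervals compare single libraries and carry no spread between cultures.

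In 5637, 6 members passed the mean of 1 FPKM and 5 of them (IL1A, IL1B, IL36G, IL1R1 and CASP1) were at least 2-fold above the library labelled 5637 sh-NC with both hairpins, where 18.5% of 12791 genes were, and 0 were 2-fold lower, where 12.3% of genes were. These 5 reached the mean only through the 5637 sh-LNMAT1 libraries, which nearly fixes a 2-fold difference, so nothing is read from their count. The log2 changes were 8.46 and 8.70 for IL1A, 6.62 and 6.94 for IL1B, 3.60 and 4.79 for IL36G, 1.99 and 1.56 for IL1R1 and 2.15 and 1.83 for CASP1, with #1 and #2 in that order. IL18 was lower with both hairpins, by log2 changes of -0.57 and -0.65, short of 2-fold. Under that mean, IL1RN was 4.01 times its level in the library labelled 5637 sh-NC with #1 (exact 95% counting interval 2.19 to 7.83) and 20.7 times with #2 (12.1 to 38.4). All of these rest on the library labelled 5637 sh-NC, which was close to UM-UC-3 in its profile and its epithelial markers.

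Pooling the lines, with the line as a covariate, set 4 sh-LNMAT1 libraries against 2 sh-NC libraries and called 0 of 12717 genes by limma, while 811 genes (6.38%) had an unadjusted p under 0.05. The spread in this fit holds the difference of the knockdown effect between the lines as well as that between hairpins. IL1A differed by 4.47 (SE 1.72) and IL1B by 3.55 (SE 1.36) on the log2 scale, with unadjusted p of 0.0414 and 0.0405 and a limma adjusted p of 0.569 each. IL36G was 2.05 (SE 1.00), IL1R1 1.11 (SE 0.49) and IL18 -0.07 (SE 0.46), none of them called. Leaving out UM-UC-3 sh-NC left the library labelled 5637 sh-NC as the only control. The differences were then 8.58 for IL1A, 6.78 for IL1B, 4.20 for IL36G, 1.77 for IL1R1 and -0.61 for IL18. IL1A, IL1B, IL36G and IL1R1 passed the filter only through the 5637 sh-LNMAT1 libraries, where they are high. With the UM-UC-3 libraries alone 0 genes were called, and 319 had an unadjusted p under 0.05.

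The difference of the knockdown effect between the lines was tested as the interaction of line and knockdown. Of the 5 members tested, 3 were called as more raised in 5637, where 9.99% of all genes were, and 0 in the other direction, where 8.79% were. The 3 entered the fit only through the 5637 sh-LNMAT1 libraries, and nothing is read from this count either. The interaction was 8.23 (SE 0.60, limma adjusted p = 0.0029) for IL1A, 6.46 (SE 0.53, limma adjusted p = 0.00329) for IL1B and 4.30 (SE 0.71, limma adjusted p = 0.0166) for IL36G. For IL1R1 it was 1.32 (SE 0.42, limma adjusted p = 0.0821) and for IL18 -1.07 (SE 0.79, limma adjusted p = 0.37). The call of IL36G was lost without UM-UC-3 sh-LNMAT1#1 (limma adjusted p = 0.0665) and without UM-UC-3 sh-LNMAT1#2 (limma adjusted p = 0.0528), and IL18 was called at -1.75 without UM-UC-3 sh-LNMAT1#1 (limma adjusted p = 0.0342). This test uses the library labelled 5637 sh-NC as its only 5637 control.

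The 2 hairpins in 5637 could be compared without any control library. By the recovered fragments, IL1A was 1.18 times as high with #2 as with #1 (exact 95% counting interval 1.15 to 1.21) and IL1B 1.25 times (1.21 to 1.28). The antagonist IL1RN differed most, 5.16 times as high with #2 (3.82 to 7.10), followed by IL1R2 at 2.65 times (1.48 to 4.97) and IL36G at 2.39 times (2.08 to 2.76). IL1RAP was 1.58 times as high (1.36 to 1.83), whereas IL1R1 at 0.697 times (0.622 to 0.780) and CASP1 at 0.758 times (0.641 to 0.895) were lower with #2. IL18 was 0.942 times (0.854 to 1.04). On the log2(FPKM + 0.5) scale, genes whose mean over these 2 libraries reached 1 FPKM were kept. The members kept were IL1A, IL1B, IL18, IL36G, IL1RN, IL1R1 and CASP1. IL36G and IL1RN were the 2 members past 2-fold, among 155 of 12472 genes (1.24%) higher by that much with #2. IL1RN reached the mean only through #2, where it is high, so nothing is read from this count. No replicate of either library shows whether the hairpin or the culture carried these differences.

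**Figure D2:**
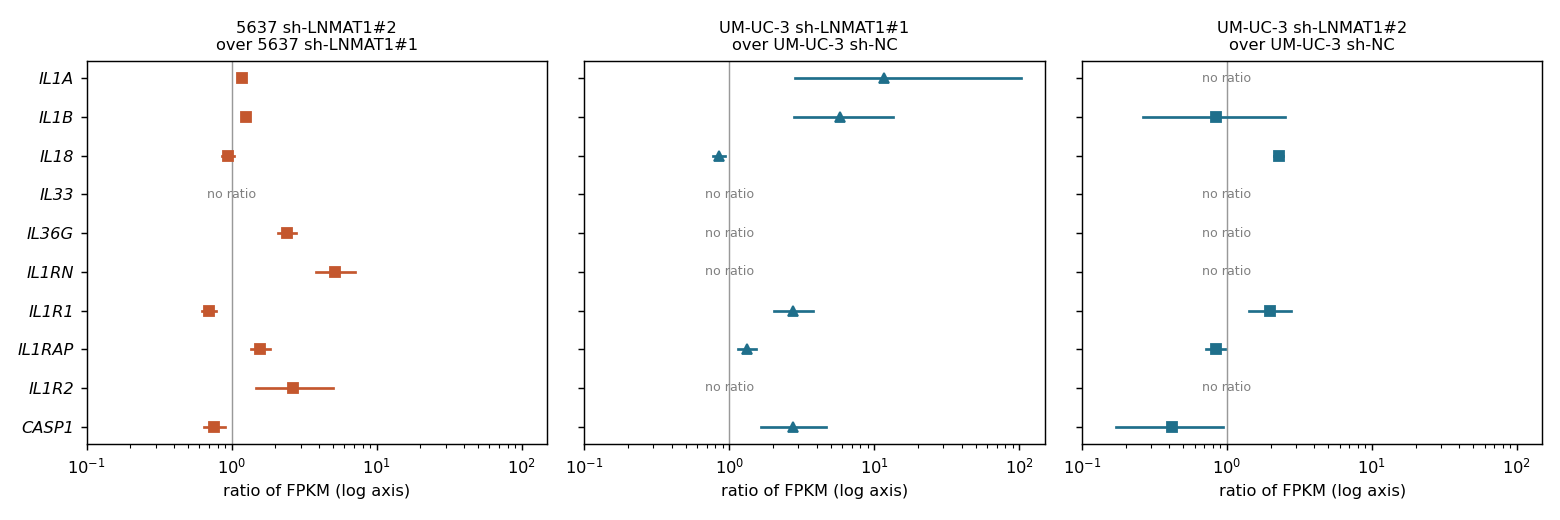
Ratio of each member's FPKM between 2 libraries on a log axis, with the exact 95% counting interval as a bar, for 5637 sh-LNMAT1#2 over #1 (left) and for each UM-UC-3 sh-LNMAT1 library over UM-UC-3 sh-NC (middle and right); no ratio is drawn where both libraries had at most 3 fragments or either had 0. IL1RN lies farthest to the right in the left panel at 5.16, and IL1B, IL18, IL1RAP and CASP1 lie on opposite sides of 1 in the middle and right panels.

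Of the members, 6 lie in 2 groups of family genes on chromosome 2. The group from IL1A to IL1RN holds 9 genes over 360 kb, from 112773915 to 113134016. In it 0 genes reached a deposited FPKM of 1 in any UM-UC-3 library or in the library labelled 5637 sh-NC. IL1A, IL1B and IL36G did so in 5637 sh-LNMAT1#1, and these and IL1RN in #2. The genes between them stayed low in these libraries: IL37 at 0.229 and 0.123 FPKM, IL36B at 0.0514 and 0.0552 FPKM, IL36RN, the IL-36 receptor antagonist, at 0.419 and 0.450 FPKM, IL1F10 at 0 and 0.0505 FPKM, and IL36A at 0 in both. The flanking gene CKAP2L, a spindle protein gene, was 3.43 to 11.0 FPKM over the 6 libraries with the lines overlapping, and the other flank, PSD4, was 0 to 0.0117 FPKM in the other 4 libraries and 0.804 and 0.955 FPKM in 5637 sh-LNMAT1#1 and #2. High levels were thus next to low ones within the group.

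The receptor group from IL1R2 to IL18RAP holds 6 genes over 461 kb, from 101991844 to 102452565. IL1R1 and IL18R1, the ligand-binding chain for interleukin 18, passed 1 FPKM there, and only in the 5637 sh-LNMAT1 libraries, with IL18R1 at 1.64 and 1.45 FPKM against 0.0179 to 0.135 FPKM in the other 4. Its partner chain IL18RAP had 0 to 0.0345 FPKM in all 6 libraries. IL1RL2, which binds IL36G, was 0.270 and 0.194 FPKM in the 5637 sh-LNMAT1 libraries, and IL1RL1, which binds interleukin 33, was 0 to 0.0813 FPKM over the 6. The flanking genes were MAP4K4 at 6.81 to 11.2 FPKM and SLC9A4 at 0 to 0.0453 FPKM.

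**Figure D3:**
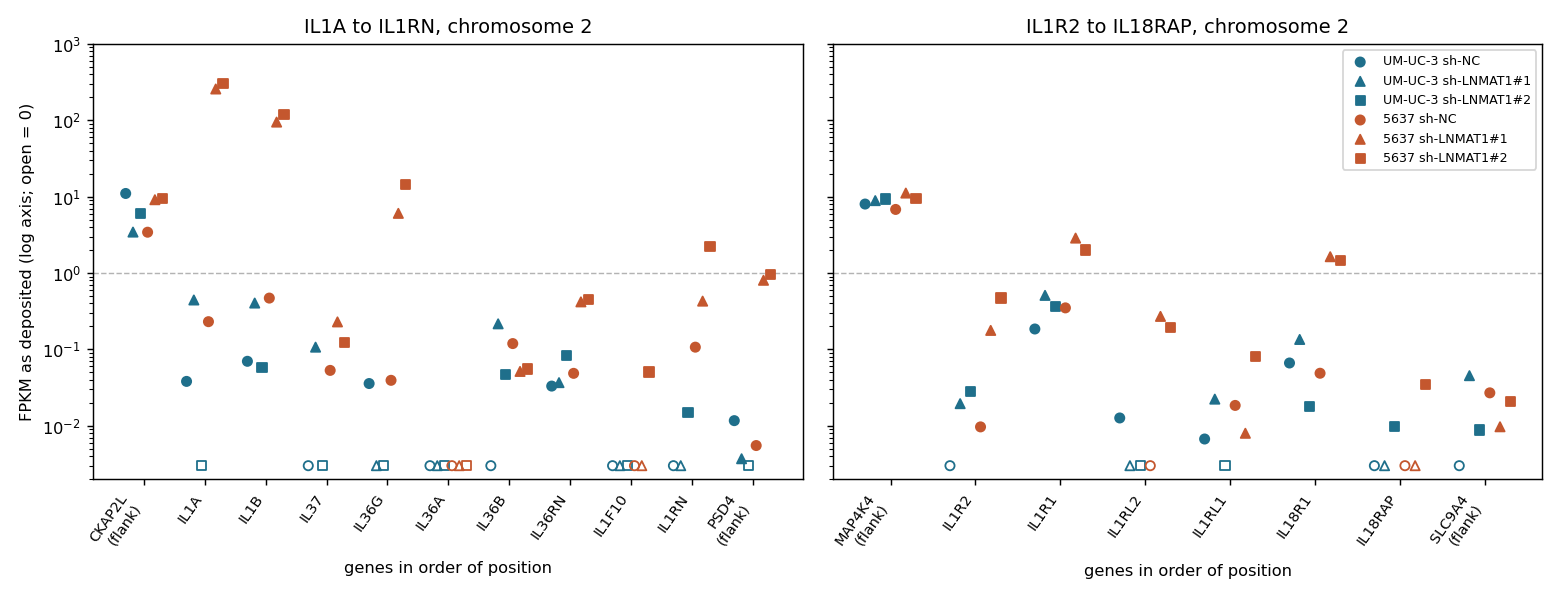
FPKM on a log axis of the genes of the 2 family groups on chromosome 2 in their order of position, with the nearest protein-coding gene on either side, colours and shapes as for the members' levels, open symbols for 0 and a dashed line at 1 FPKM. IL1A, IL1B, IL36G and IL1RN on the left and IL1R1 and IL18R1 on the right are the family genes above the dashed line, in 5637 sh-LNMAT1 libraries alone. The values are as deposited, and which genes lie above the line depends on the length behind the FPKM.

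The wider pathway was taken as lists, with the lines compared at matched constructs as above. Of 12 other family and receptor genes 2 were tested, and 1, the synaptic receptor homologue IL1RAPL1, was lower in 5637 by limma at -1.78 (SE 0.24, adjusted p = 0.00423), where 19.1% of all genes were called lower. IL1RAPL1 passed the filter only through the 4 libraries other than 5637 sh-LNMAT1. Of 13 signalling genes 12 were tested, 4 higher in 5637 and 3 lower by limma, beside 18.5% and 19.1% of all genes, with a median difference of -0.01 beside -0.05 over all genes. PELI2 passed the filter only through the 5637 sh-LNMAT1 libraries, and nothing is read from these counts. Most raised in 5637 were PELI2, a ubiquitin ligase acting on the IRAK complex, at 2.91 (SE 0.27) and the kinase IRAK2 at 2.76 (SE 0.30), which was 145 and 165 FPKM in the 5637 sh-LNMAT1 libraries and 14.0 to 29.5 FPKM in the others. Lowest were the kinases IRAK1 at -1.01 (SE 0.24) and MAP3K7 at -0.83 (SE 0.22). The adaptor MYD88 and TAB3 were the other genes called higher, and TAB2 the other called lower.

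Of 15 genes for processing and release 8 were tested, 4 higher in 5637 and 2 lower by limma, beside 18.5% and 19.1% of all genes, with a median difference of 0.46 beside -0.05 over all genes. AIM2 passed the filter only through the 5637 sh-LNMAT1 libraries and NLRP1 only through the other 4 libraries. Nothing is therefore read from these counts or the median. AIM2, a DNA sensor that assembles an inflammasome, differed most, by 3.19 (SE 0.21), and was at 0 in both UM-UC-3 sh-LNMAT1 libraries against 4.06 and 4.08 FPKM. CAPN1, a calpain of the protease family that cleaves the interleukin 1 alpha precursor, was second at 1.72 (SE 0.21). Lower in 5637 were the sensor NLRP1 at -1.89 (SE 0.26) and CASP8 at -1.17 (SE 0.20). The inflammasome adaptor PYCARD was under the filter, at 0.632 and 0.513 FPKM in the 5637 sh-LNMAT1 libraries and 0 to 0.0280 FPKM in the others, and NLRP3 was 0.133 FPKM in both against 0.574 to 1.09 FPKM.

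Of 18 genes known to respond to interleukin 1, 17 were tested, 8 higher in 5637 and 1 lower by limma, beside 18.5% and 19.1% of all genes, with a median difference of 0.81 beside -0.05 over all genes. LCN2, PTGS2, ICAM1 and TNFAIP2 passed the filter only through the 5637 sh-LNMAT1 libraries. Nothing is therefore read from these counts or the median. LCN2, an iron-siderophore-binding protein of epithelia, differed most, by 9.82 (SE 0.19), with 583 and 616 FPKM in the 5637 sh-LNMAT1 libraries and between 0.117 and 0.202 FPKM in the other 4. PTGS2, the inducible prostaglandin synthase, was second at 6.27 (SE 0.22) and 35.8 and 44.8 FPKM in 5637 sh-LNMAT1. The 1 gene lower was the chemokine gene CXCL3 at -1.43 (SE 0.41, adjusted p = 0.0433 by limma). The related chemokine genes CXCL8 and CXCL1 were not called: CXCL8 ranged from 40.7 to 180 FPKM and CXCL1 from 54.8 to 122 FPKM over the 6 libraries, with the lines overlapping. The NF-kappaB inhibitor NFKBIA, itself a target of the pathway, differed by -0.08 (SE 0.61). In UM-UC-3, CXCL8 was at 180, 40.7 and 158 FPKM and BIRC3 at 149, 9.72 and 113 FPKM, both lowest with sh-LNMAT1#1. Also lowest with sh-LNMAT1#1 were CCL20, CSF2, CXCL1, CXCL2, CXCL3, ICAM1, NFKBIA, SOD2, TNFAIP2 and TNFAIP3. The remaining genes of the list, IER3, IL6, LCN2, NFKBIZ, PTGS2 and ZC3H12A, were lowest with sh-NC. Of these genes ICAM1, IL6, LCN2 and PTGS2 had at most 14 fragments in each UM-UC-3 library. IER3 was at 37.8, 76.0 and 74.1 FPKM and NFKBIZ at 3.03, 6.30 and 7.34 FPKM, both lowest with sh-NC.

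**Figure D4:**
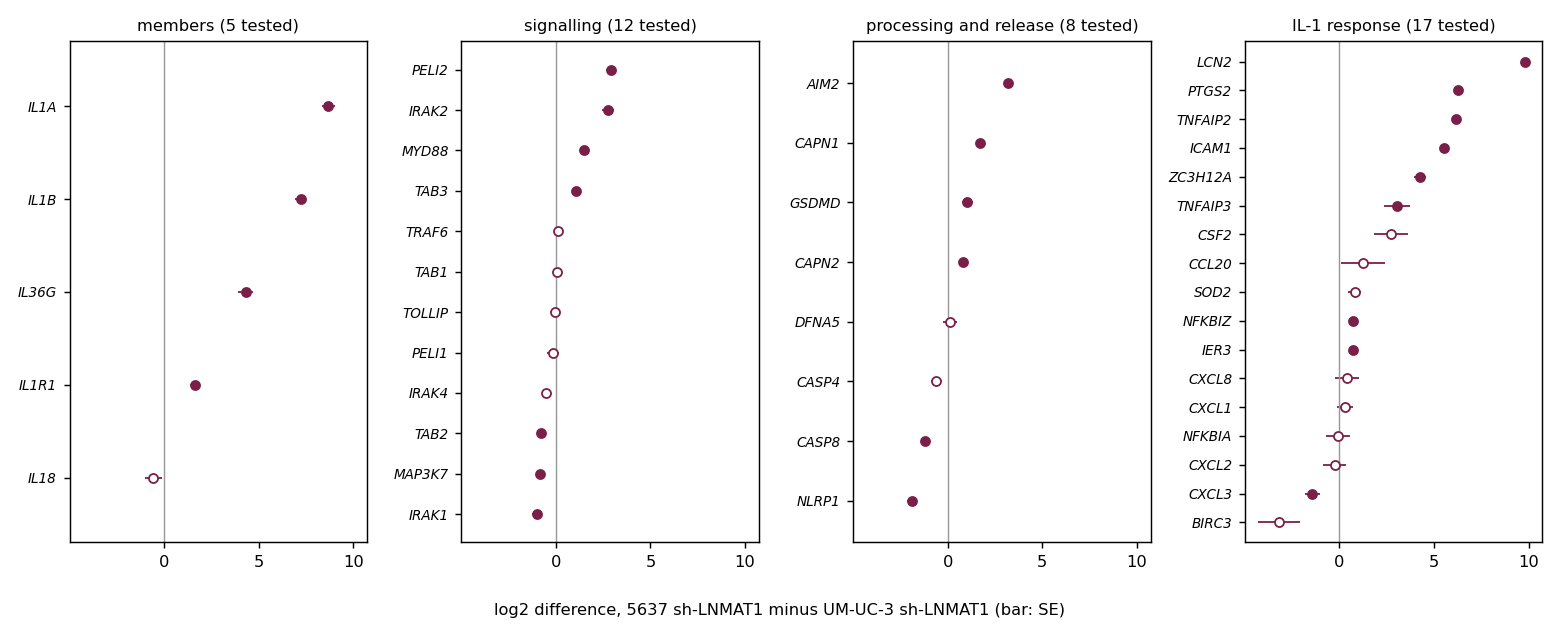
Log2 difference between the 2 5637 sh-LNMAT1 and the 2 UM-UC-3 sh-LNMAT1 libraries, with its SE as a bar, for the tested members and 3 gene lists, filled where limma's adjusted p was under 0.05. IL1A at 8.67 and IL1B at 7.23 exceed every tested signalling and processing gene, and LCN2 at 9.82 leads the response genes. Of the response genes 8 are filled above 0 and 1 below, beside 18.5% and 19.1% of all genes called higher and lower. IL1A, IL1B, IL36G, IL1R1, PELI2, AIM2, LCN2, PTGS2, ICAM1 and TNFAIP2 passed the filter only through the 5637 sh-LNMAT1 libraries. Nothing is therefore read from these counts.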

How the data were processed

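The authors deposited FPKM per gene for 6 libraries of stranded mRNA in 1 table. The submitters' processing notes name HISAT2 and hg38, and the counting program and the annotation are not given in the sources used here. Of 50869 genes, 1 without values was left out, and all 10 members had the positions of GENCODE release 29.

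Depths were read from single-exon genes, where at least 99.96% of values under 100 fragments were whole within 0.05 fragments. With the summed length of all distinct exons, 93.0% to 93.4% of such values over all genes were whole, and the members' fragments were recovered with this length. For CASP1 a length of 6691 bases was searched for in place of 7018 bases. The deposited FPKM got no count-based test.

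Genes whose mean reached 1 FPKM were tested on log2(FPKM + 0.5) with limma 3.58.1 in R 4.3.3 (lmFit, eBayes with a trend), with 3 residual degrees of freedom in the pooled fit and 2 in the others, at a Benjamini-Hochberg adjusted p under 0.05 over all genes. The pseudocount understates the change of low genes. Whether libraries came from separate cultures was not stated. Ratios between 2 libraries had exact binomial 95% intervals from scipy 1.17.1. Alternatives were a pseudocount of 0.1 or 1, testing all genes or those reaching 5 FPKM, 75th-percentile scaling, no trend, other covariates, a replicate block, thresholds of 1.5-fold and 5-fold, and leaving out libraries; the fit on UM-UC-3 alone, other lengths and the hairpin comparison in 5637 were added after the data were seen. All 10 members were named, with the 2 called genes of largest rise and fall in each list, the genes of the chromosome 2 groups and LINC01296. CXCL1, CXCL8, BIRC3, NFKBIA, IER3, NFKBIZ, ICAM1, TNFAIP2, PYCARD, NLRP3, MYD88, TAB2, TAB3 and the single markers were added after their values were seen. CXCL2, CCL20, CSF2, IL6, SOD2, TNFAIP3 and ZC3H12A were likewise added after that. The members and lists were chosen with earlier results of these data known. The fits were tested on simulated data.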

Additional observations from a re-analysis of the deposited data

Results flagged for a closer look

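Limma's interaction of line and knockdown called 3 members, at 8.23 (log2) for IL1A, 6.46 for IL1B and 4.30 for IL36G. In that direction 9.99% of all genes were called. These 3 members entered the fit only through the 5637 sh-LNMAT1 libraries, so nothing is read from their count. The levels stood at 257 and 304 FPKM for IL1A in the 5637 sh-LNMAT1 libraries and at 0.231 FPKM in the library labelled 5637 sh-NC, which lay within the range of UM-UC-3. All 3 values rest on that library as the only 5637 control, and epithelial markers moved with it, from 26.1 FPKM to 453 and 567 FPKM in sum. The part of either in the result was not tested.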

How the results depend on the processing

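With 2 sh-LNMAT1 libraries in each line, the spread is that between hairpins. The pooled fit adds to it the difference of the knockdown effect between the lines. Depth limits IL33, IL1RN and IL1R2, which had few fragments in most or all libraries. It also limits how exactly the large differences of IL36G and IL1A are known. Outside the 5637 sh-LNMAT1 libraries IL36G had 0 to 2 fragments and IL1A 0 to 21. Scaling, pseudocount and trend changed no call of a member in the fits with all their libraries. With hairpin number as a replicate block, the comparison of the lines gave 2502 genes higher and 2629 lower and the same 4 members; construct and line had 1 library each, so no further pairing was possible. A filter of 5 FPKM left 929 genes higher and 1260 lower in that comparison, with 2 members higher, 417 and 466 in the interaction, and 3 members in 5637 against its sh-NC library, as did a 5-fold threshold (3). Taking 3 libraries labelled 5637 against 3 of UM-UC-3 gave 1 gene higher, 1 lower and 0 members. Leaving out 1 library gave 781 to 2595 genes higher, 464 to 2570 lower, 4 members higher and 0 to 1 lower in the comparison of the lines, where the lowest counts came without 5637 sh-LNMAT1#1 or #2. In the interaction it gave 581 to 2095 higher, 103 to 1933 lower, 2 to 3 members higher and 0 to 1 lower. In the pooled comparison it gave 0 to 2028 higher, 0 to 1919 lower and 0 to 4 members higher, the highest without UM-UC-3 sh-NC. IL18 turned from -0.07 to 0.46 in the pooled comparison with UM-UC-3 libraries alone or without the library labelled 5637 sh-NC, to 0.02 without 5637 sh-LNMAT1#2 and to 0.14 without UM-UC-3 sh-LNMAT1#1, a range of -0.61 to 0.46 with 1 library left out, and from -0.57 to 0.11 between the lines without UM-UC-3 sh-LNMAT1#2, a range of -1.25 to 0.11. IL36G turned from 2.05 to -0.10 in the pooled comparison with UM-UC-3 libraries alone or without the library labelled 5637 sh-NC, a range of -0.10 to 4.20, and its interaction was not called without a filter (limma adjusted p = 0.105). The log2 ratio of IL1A to IL1B turned from 1.44 to -0.24 in 5637 sh-LNMAT1#1 and from 1.36 to -0.32 in #2 with the longest coding transcript, through the lengths alone. The cause of the other changes was not tested. The interaction could not be fitted without an sh-NC library.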
